A study of Homo sapiens with 11 samples.

Results

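ROR2 and 9 further genes of the WNT pathway were followed through nickel exposure and washout: the receptors ROR1, ROR2, FZD2 and LRP6, the ligands WNT5A, WNT7A and WNT7B, the target gene AXIN2, and the secreted antagonists DKK1 and SFRP1. They were picked by symbol, and ROR2 was picked because it stood among the largest rises in the RNA-Seq of RT4 cells, so its change there is a description and carries no test. All 10 are listed among the 28252 genes of the RNA-Seq tables and among the 26237 promoters of the ChIP-Seq tables. RNA was measured in RT4, a human bladder cancer line of non-invasive origin, in untreated (UT) cells, in cells kept with 100 μM NiCl2 for 6 weeks (Ni-E), and in cells then washed and kept for 2 weeks without nickel (Ni-W), with 2 replicates per group. H3K4me3, a histone mark found at active and poised promoters, was measured in BEAS-2B, an immortalized human bronchial epithelial line, with 1 library per condition: untreated, exposed (100 μM, 6 weeks) and washed out. The BEAS-2B Ni-W population was grown from 1 colony, hence from 1 exposed cell, and had been without nickel for more than 6 months. The methods call the RNA-Seq replicates biological. Within a line the groups do not differ in genotype as labelled. A comparison of the RT4 RNA with the BEAS-2B promoters would confound the cell line, the length of the washout and the clonal origin with the assay.

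WNT proteins are secreted lipid-modified ligands. In the canonical branch they bind a Frizzled receptor together with LRP5 or LRP6, which stops the destruction complex (APC, AXIN, GSK3B) from degrading β-catenin, and β-catenin then acts with TCF/LEF factors on target genes such as AXIN2. In the non-canonical branches WNT5A acts through the receptor tyrosine kinases ROR1 and ROR2 and through Frizzled receptors on cell polarity and migration, and can oppose the canonical branch. DKK1 blocks LRP5 and LRP6, and SFRP1 binds WNT ligands outside the cell. WNT7A and WNT7B are ligands of epithelia, and the canonical branch is known in the bladder for its part in epithelial renewal.

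The 250 bases that lie upstream of the annotated start are shown for ROR2, ROR1, WNT7A and DKK1, but not for WNT5A, which has a pair of annotated starts. They come from RefSeq on GRCh38.p14, whose promoter table matched 5 of the 10 members (ROR1, ROR2, WNT5A, WNT7A and DKK1); AXIN2, FZD2, LRP6, SFRP1 and WNT7B are named only. Each is written 5′ to 3′ on the strand of its gene, and capitals mark the CpG dinucleotides.
ROR2, chr9:91950229-91950478, minus strand: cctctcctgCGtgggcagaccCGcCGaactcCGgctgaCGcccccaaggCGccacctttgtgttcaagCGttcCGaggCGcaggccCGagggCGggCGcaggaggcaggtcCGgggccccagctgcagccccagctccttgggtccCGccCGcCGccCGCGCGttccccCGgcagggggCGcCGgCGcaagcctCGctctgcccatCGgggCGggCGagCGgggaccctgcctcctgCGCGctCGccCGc
ROR1, chr1:63773767-63774016, plus strand: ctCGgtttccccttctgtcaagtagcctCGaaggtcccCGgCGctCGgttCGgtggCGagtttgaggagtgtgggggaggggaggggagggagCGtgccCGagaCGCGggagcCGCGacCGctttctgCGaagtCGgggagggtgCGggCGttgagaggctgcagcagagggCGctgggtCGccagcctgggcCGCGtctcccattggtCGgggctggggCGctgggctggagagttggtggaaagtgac
WNT7A, chr3:13880072-13880321, minus strand: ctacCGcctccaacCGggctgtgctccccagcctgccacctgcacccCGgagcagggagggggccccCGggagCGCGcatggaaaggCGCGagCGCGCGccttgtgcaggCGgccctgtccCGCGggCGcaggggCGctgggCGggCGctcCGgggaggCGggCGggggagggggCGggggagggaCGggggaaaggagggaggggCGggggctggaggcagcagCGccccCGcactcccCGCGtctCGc
DKK1, chr10:52314031-52314280, plus strand: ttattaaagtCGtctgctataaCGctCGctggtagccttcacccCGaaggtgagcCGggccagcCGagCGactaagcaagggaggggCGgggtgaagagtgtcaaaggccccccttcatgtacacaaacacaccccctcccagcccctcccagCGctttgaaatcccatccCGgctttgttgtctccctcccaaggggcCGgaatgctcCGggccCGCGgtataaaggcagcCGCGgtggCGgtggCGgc

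The ROR2 window held 32 CpG, more than in 90.5% of the 35116 promoter entries, whose median was 11. The WNT7A window held 29 (more than in 85.9%), the ROR1 window 24 (76.3%) and the DKK1 window 18 (63.2%). WNT5A has a pair of annotated starts with 18 and 14 CpG. The letters CTTTGA, the core bound by TCF/LEF factors, were searched on both strands and are present in 11.2% of all windows of this length. They matched 2 times in the DKK1 window, with matches that begin 95 and 149 bases before the start, and in none of the other matched members. The letters ACGTG, the core of the hypoxia response element, are present in 18.5% of all windows and in none of those of the matched members.

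The RT4 libraries held between 17075833 and 27736454 estimated counts, with a median of 22000910, and replicate 2 was the deeper library in each group. Of 28252 genes, 14502 passed edgeR's filter on low counts, and of the 10 members all but SFRP1. ROR1 and ROR2 passed it only through the group or groups in which they are high, so that they had to differ. The 14 urothelial and epithelial markers summed to 13600 to 14800 TPM (transcript abundance corrected for length and depth) in UT cells. The sum was 14200 to 14500 in Ni-E and 14100 to 17100 in Ni-W cells. Most of it came from the keratin genes KRT7, KRT19, KRT8 and KRT18 (4384, 4697, 1682 and 1120 TPM in UT replicate 1), so that it says little about the other markers. The keratin gene KRT20, a marker of the most differentiated urothelial cells, fell by 6.03 on the log2 scale in Ni-E cells (edgeR adjusted p = 0.0085). In Ni-W cells it fell by 2.97 (edgeR adjusted p = 0.0294). It had 177 and 297 counts in UT, 4 and 3 in Ni-E, and 22 and 37 in Ni-W cells, so that its Ni-E level lay near the counting floor. The uroplakin gene UPK1A fell by 2.27 in Ni-E cells (edgeR adjusted p = 0.0376). None of the other listed epithelial markers was called without a block. The 10 fibroblast markers summed to 1.17 to 1.85 TPM in UT, 3.29 to 5.08 in Ni-E and 2.49 to 5.51 in Ni-W cells. Of these only COL1A1 and COL3A1 had enough counts to be tested, and neither passed the test without a block. COL1A2, DCN and THY1 were at 0 in all libraries, and COL3A1 made up most of the rise in the sum. The 6 leukocyte markers summed to 7.58 to 8.14, 10.9 to 13.5 and 13.6 TPM, nearly all of it CD68, and the 4 endothelial markers to 0.94 to 1.9, 0.61 to 0.96 and 0.88 to 1.67 TPM. The part of these markers in the changes described here was not tested, and in bulk RNA fewer cells of a type and less RNA per cell cannot be told apart.

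ROR2 (chr9:91722601-91950228, minus strand) was barely detected in UT cells and clearly present after nickel. It had 5 and 3 counts in the UT libraries, 194 and 293 in Ni-E, and 102 and 157 in Ni-W, so that the groups did not overlap. Scaled to library size, this was 0.269 and 0.118 CPM (counts scaled to an equal library size) in UT, 10.7 in both Ni-E libraries, and 5.86 and 6.05 in Ni-W cells. The replicates of the nickel groups lay close together, and the UT libraries were near the level that 3 counts give (0.166 and 0.117 CPM). The summed counts gave a ratio of 58.9 for Ni-E over UT cells, with a 95% counting interval of 29.6 to 137, and of 32.9 (16.5 to 77.1) for Ni-W over UT cells. These intervals cover counting error only, and ROR2 was picked for its rise in these libraries. The ratios, and the fitted changes and ranks that follow, describe that rise and are no test of it. The fitted log2 fold changes were 5.81 ± 0.39 (SE, n = 2 per group) and 4.97 ± 0.39, which placed ROR2 at rank 19 and rank 23 of the 14502 genes from the highest change down. Between Ni-E and Ni-W cells ROR2 changed by −0.84 ± 0.28 on the log2 scale, a ratio of 0.56 (0.479 to 0.652), and 2 weeks after washout it was still above the UT level in both libraries. The Ni-E and Ni-W changes are measured against the same UT libraries and are not independent of each other.

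**Figure D1:**
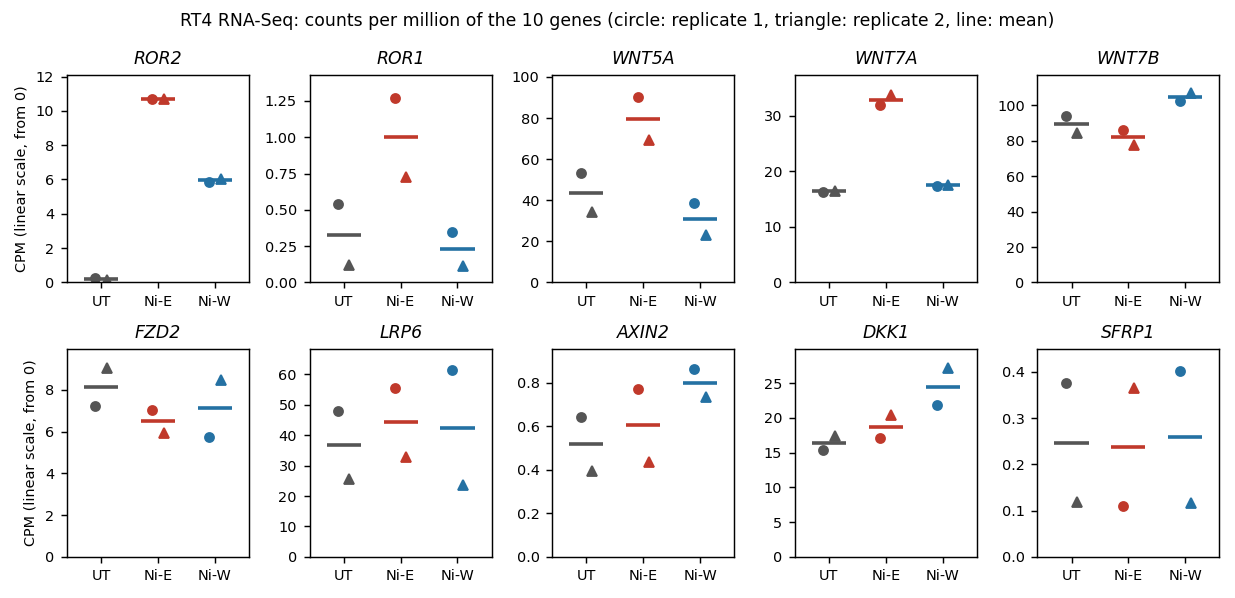
Library-scaled counts (CPM) of the 10 genes in the 6 RT4 libraries, on a linear axis from 0 that differs between panels, with a circle for replicate 1, a triangle for replicate 2 and a line at the mean of each group (UT, Ni-E, Ni-W). ROR2 stands near 0 in UT cells and at 10.7 and 6 CPM after nickel, WNT7A is high in Ni-E cells alone, and LRP6 differs more between replicates than between groups.

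ROR1 (chr1:63774017-64181498), the closest relative of ROR2 and also a receptor of WNT5A, was low throughout. It had 10 and 3 counts in UT, 23 and 20 in Ni-E, and 6 and 3 in Ni-W cells, and both Ni-E libraries were above the libraries of the other groups. The ratio of the summed counts was 3.2 (1.69 to 6.48) for Ni-E over UT, 0.704 (0.266 to 1.78) for Ni-W over UT and 0.22 (0.0944 to 0.458) for Ni-W over Ni-E cells. The intervals leave out the spread between replicates, which was −2.19 on the log2 scale for replicate 2 over replicate 1 in UT cells. Since ROR1 passed the filter only through its Ni-E libraries, the order of its libraries, the ratios and the intervals are a description and no test. The fitted log2 fold change in Ni-E cells was 1.65 ± 0.80 without a block and 1.72 ± 0.51 with the replicate number as a block. It was 3.01 without UT replicate 1 and 0.87 without UT replicate 2. In Ni-W against UT cells the fitted change without a block was −0.51 ± 0.94, smaller than its SE. The antisense gene ROR1-AS1 had a single count in the 6 libraries, in Ni-E replicate 2. The library kit does not mark strand.

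WNT5A (chr3:55465715-55505263, minus strand), the ligand of ROR1 and ROR2, had its highest level in Ni-E cells, and the lowest in Ni-W cells. It was measured at 53.2 and 34.3 CPM in UT, 90.3 and 69.2 in Ni-E, and 38.4 and 22.9 in Ni-W cells. Replicate 2 was the lower library in every group, the Ni-E libraries did not overlap those of the other groups, and the UT and Ni-W libraries overlapped. The fit without a block gave a log2 fold change of 0.87 ± 0.35 in Ni-E cells (adjusted p = 0.4), whereas the block gave 0.89 ± 0.12 (adjusted p = 6.6e-04). From Ni-E to Ni-W cells it changed by −1.38 ± 0.35 without the block (adjusted p = 0.462) and by −1.41 ± 0.13 with it (adjusted p = 1.7e-04). With the block the Ni-W level also lay below UT (−0.52 ± 0.13, adjusted p = 0.0232), by less than the 1.5-fold threshold.

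WNT7A (chr3:13816258-13880071, minus strand), a ligand that acts in either branch depending on the receptor, was at 16.3 and 16.5 CPM in UT, 31.9 and 33.8 in Ni-E, and 17.4 and 17.6 in Ni-W cells. The Ni-E libraries were 2.0-fold above UT, and the Ni-W libraries stood slightly above the UT ones. The log2 fold change in Ni-E cells was 1.00 ± 0.17 without the block (adjusted p = 0.0537) and 1.00 ± 0.13 with it (adjusted p = 4.0e-04). In Ni-W cells WNT7A differed from UT by 0.09 ± 0.17 (adjusted p = 0.999) and from Ni-E cells by −0.91 (adjusted p = 0.272 without and 0.00257 with the block). DESeq2 also called WNT7A in Ni-E against UT cells (adjusted p = 0.0017) and in Ni-W against Ni-E cells (adjusted p = 0.0243).

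WNT7B (chr22:45920366-45977162), the most abundant of the 10, was at 94.2 and 84.4 CPM in UT, 86.2 and 77.7 in Ni-E, and 102 and 107 in Ni-W cells. Its Ni-W libraries were the highest, and the UT and Ni-E libraries overlapped. The log2 fold change was −0.12 ± 0.16 in Ni-E (adjusted p = 0.975) and 0.23 ± 0.16 in Ni-W cells (adjusted p = 0.948), and with the block neither passed the test.

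DKK1 (chr10:52314281-52317657), the antagonist of LRP5 and LRP6, was at 15.3 and 17.4 CPM in UT, 17.1 and 20.3 in Ni-E, and 21.8 and 27.1 in Ni-W cells. The Ni-W libraries lay above those of both other groups, while the UT and Ni-E libraries overlapped. The log2 fold change in Ni-W cells was 0.58 ± 0.22 (adjusted p = 0.479). With the block it was 0.58 ± 0.13 (adjusted p = 0.0192), a fold change of 1.49 that stayed under the 1.5-fold threshold. In Ni-E cells it was 0.19 ± 0.22 (adjusted p = 0.952).

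For the canonical co-receptor LRP6, the receptor FZD2 and the target gene AXIN2, no difference between groups passed the test, with or without the block. LRP6 (chr12:12116025-12267044) was at 48.0 and 25.7 CPM in UT, 55.6 and 32.9 in Ni-E, and 61.5 and 23.6 in Ni-W cells, so that replicate 2 was lower in all 3 groups by 0.76 to 1.38 on the log2 scale. FZD2 (chr17:44557484-44561262) was at 7.25 and 9.07, 7.06 and 5.94, and 5.75 and 8.49 CPM, and its Ni-E libraries lay below both UT libraries while the Ni-W libraries overlapped them. AXIN2 (chr17:65528563-65561648), which is a read-out of β-catenin activity in many tissues, had 10 to 19 counts in every library and log2 fold changes of 0.21 ± 0.50 in Ni-E and 0.63 ± 0.49 in Ni-W cells. Its Ni-W libraries (0.862 and 0.733 CPM) lay above those of UT cells (0.645 and 0.393), and at this depth the fitted change of 1.55-fold did not pass the test (adjusted p = 0.977). SFRP1 (chr8:41261962-41309473) had 2 to 10 counts per library and was not tested.

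Leaving out ROR1 and ROR2, 0 of the 7 tested members passed both thresholds (1.5-fold and adjusted p below 0.05, edgeR without the block) in Ni-E against UT cells, where 2.17% of all genes did so. In Ni-W against UT cells it was 0 of 7, beside 0.600% of all genes, and in Ni-W against Ni-E cells 0 of 7, beside 0% of all genes. At an unadjusted p below 0.05 there were 2 members (WNT5A, WNT7A) in Ni-E against UT cells, where 12.2% of all genes passed, 1 (DKK1) in Ni-W against UT cells beside 9.1%, and 2 (WNT5A, WNT7A) in Ni-W against Ni-E cells beside 5.6%. DESeq2 called 1 (WNT7A), 0 and 2 (WNT5A, WNT7A) of the 7 members, beside 734, 437 and 139 of 19464 genes. With the replicate block, WNT5A and WNT7A were higher in Ni-E than in UT cells, 2 of 7 members beside 12.6% of all genes, and the same 2 were lower in Ni-W than in Ni-E cells, beside 4.52% of all genes. In Ni-W against UT cells 0 of 7 passed with the block, beside 8.57% of all genes, and 2 (DKK1, WNT5A) had an unadjusted p below 0.05, as did 25.5% of all genes. With so few members these shares are a description. Both contrasts of Ni-E cells share the Ni-E libraries.

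**Figure D2:**
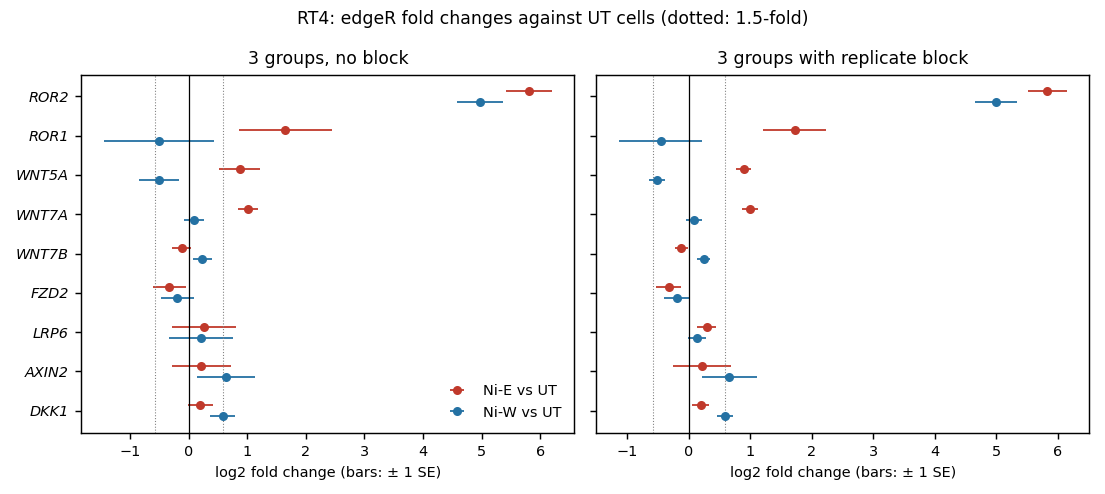
Log2 fold changes against UT cells of the 9 members tested, with bars of 1 SE, from edgeR without a block (left) and with the replicate number as a block (right); dotted lines mark 1.5-fold. The estimates hardly moved between the fits, as for WNT5A in Ni-E cells (0.87 and 0.89), while the SE of WNT5A went from 0.35 to 0.12.

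Per length, in TPM, the order of the members in UT cells was WNT7B (41.2 ± 8.55, SD, n = 2), DKK1 (17.3 ± 0.7), WNT5A (13.6 ± 5.4), WNT7A (7.44 ± 0.891), LRP6 (6.5 ± 3.54) and FZD2 (3.88 ± 0.106), with AXIN2, ROR1, ROR2 and SFRP1 between 0.105 and 0.23. DKK1 and WNT5A did not differ beyond their spread, nor did WNT7A and LRP6, LRP6 and FZD2, or the 4 lowest genes among themselves. In Ni-E cells ROR2 reached 4.75 ± 0.495 TPM, above FZD2 (3.16 ± 0.629) and below LRP6 (7.74 ± 3.37), whose libraries spread from 5.35 to 10.1. In Ni-W cells ROR2 was at 2.69 ± 0.453 TPM and FZD2 at 3.47 ± 0.297, whose libraries did not overlap. ROR1 was at 0.4 ± 0.17 TPM in Ni-E cells, so that ROR2 was the more abundant of the ROR receptors after nickel, whereas in UT cells their libraries overlapped.

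The 5 genes whose log2 CPM followed that of ROR2 most closely over the 6 libraries were PPP4R4 (Pearson's r = 0.998), which codes for a regulatory subunit of protein phosphatase 4, PRR5L (0.997), P4HA2 (0.996), a collagen prolyl 4-hydroxylase subunit, FYN (0.996), a kinase of the SRC family, and KCTD11 (0.995). The search covered the 2858 genes whose mean CPM reached 5 and whose log2 CPM spanned 1 or more, of which 215 had an r over 0.9 and 15 over 0.99. These correlations rest on 3 groups of 2 libraries and describe a shared order of the groups. PPP4R4 had 1.18 and 0.707 CPM in UT, 25.4 and 21.5 in Ni-E, and 17.3 and 14.2 in Ni-W cells, and FYN had 2.2 and 1.69, 14.4 and 15.6, and 9.37 and 9.03 CPM. As with ROR2, the highest libraries were those of Ni-E cells and the UT libraries were the lowest, an order for which the search selected them.

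Around these members, 102 genes of the WNT pathway were listed by role, and 75 of them passed the filter. ROR2 was left out of the counts because it was chosen for its rise, and ROR1 and WNT6 because they passed the filter only through the group in which they are highest. Without the block, 0 of the other 72 were called higher in Ni-E or in Ni-W cells against UT, beside 1.45% and 0.503% of all genes. None was called lower, beside 0.710% and 0.0965%, and none was called between Ni-W and Ni-E cells. At an unadjusted p below 0.05 there were 15, 10 and 7 of the 72 in these comparisons, beside 12.2%, 9.1% and 5.6% of all genes. Their median log2 fold change was 0.11 in Ni-E and 0.09 in Ni-W cells against UT, with −0.01 and 0.00 for all genes. With the block 13 were higher and 3 lower in Ni-E cells, beside 7.64% and 5.00% of all genes, 7 were higher and 3 lower in Ni-W cells, beside 5.79% and 2.78%, and 2 were higher and 5 lower in Ni-W than in Ni-E cells, beside 2.72% and 1.80%. Genes named below beyond the members were taken from the calls with the block and were chosen after their values were seen, apart from CTNNB1, LRP5, RYK and PTK7. Without a block, DESeq2 also called FZD10, LGR5, PTK7 and WNT11 in Ni-E cells and WNT10A in Ni-W cells against UT, beside 734 and 437 of 19464 genes. In Ni-E cells edgeR without the filter called LGR5, beside 449 of 19464 genes, and limma on log2(TPM + 1) called WNT11, beside 170 of 13137.

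Among the 19 ligands (11 tested), WNT5A, WNT7A and WNT10B were higher and WNT11 lower in Ni-E cells with the block. WNT11, a non-canonical ligand, had 3.17 and 3.85 CPM in UT, 0 and 0.474 in Ni-E, and 1.03 and 1.16 in Ni-W cells. Its blocked log2 fold changes were −3.70 ± 0.54 in Ni-E (adjusted p = 9.1e-04) and −1.69 ± 0.43 in Ni-W cells (adjusted p = 0.031). In Ni-E cells this change went against that of WNT5A, ligand of the same branch. In Ni-W cells WNT4, WNT10A and WNT10B were higher than in UT cells with the block. Their log2 fold changes were 1.48 ± 0.26 (adjusted p = 0.00444), 1.18 ± 0.19 (adjusted p = 0.00228) and 0.98 ± 0.26 (adjusted p = 0.035). WNT10A had 7.68 and 8.28 CPM in UT, 8.10 and 8.85 in Ni-E, and 13.9 and 22.7 in Ni-W cells, so that it was high in Ni-W cells alone. With the block it also passed the test against Ni-E cells (1.09 ± 0.19, adjusted p = 0.00696). The 2 genes of ligand secretion (PORCN and WLS) were not called in any comparison.

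Of the 16 receptors and co-receptors 15 passed the filter, and with the block, ROR1 and ROR2 aside, FZD3, FZD7 and PTK7 were higher and FZD10 lower in Ni-E cells. The pseudokinase receptor PTK7, of the non-canonical branch like ROR2, had 139 and 148 CPM in UT, 245 and 225 in Ni-E, and 208 and 214 in Ni-W cells. Its log2 fold change in Ni-E cells was 0.71 ± 0.15 without the block (adjusted p = 0.0946) and 0.71 ± 0.10 with it (adjusted p = 6.2e-04), and in Ni-W cells it was 0.56 ± 0.10 with the block (adjusted p = 0.0041), under 1.5-fold. FZD7 had blocked log2 fold changes of 1.09 ± 0.16 in Ni-E (adjusted p = 8.8e-04) and 0.91 ± 0.16 in Ni-W cells (adjusted p = 0.00395), with replicate 2 the lower library in every group. RYK, the other kinase-related WNT receptor, and the canonical co-receptor LRP5 were not called, with blocked log2 fold changes in Ni-E cells of 0.35 ± 0.11 (adjusted p = 0.0513) and −0.21 ± 0.09 (adjusted p = 0.147).

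In the canonical branch, CTNNB1, which codes for β-catenin, was at 471 and 262 CPM in UT, 531 and 361 in Ni-E, and 601 and 288 in Ni-W cells, with a blocked log2 fold change of 0.32 ± 0.12 in Ni-E cells (adjusted p = 0.0946). Of the 20 tested genes of the cascade, LEF1 (0.98 ± 0.21, adjusted p = 0.00921) and PYGO1 (1.13 ± 0.22, adjusted p = 0.00537) were higher in Ni-E cells with the block, and none was called in Ni-W cells. Among 12 target genes (9 tested), with the block LEF1, LGR5 and MYC were higher and RNF43 lower in Ni-E cells. In Ni-W cells CCND1 was higher and NKD2 and RNF43 lower with the block. In the filtered edgeR fit without the block none of these was called, while DESeq2 and edgeR without the filter called LGR5 in Ni-E cells. LGR5, a receptor for R-spondins and stem cell marker, had 40.3 and 22.6 CPM in UT, 148 and 106 in Ni-E, and 59.5 and 30.9 in Ni-W cells. It was higher by 2.05 ± 0.14 in Ni-E cells with the block (adjusted p = 5.0e-06), and by 2.01 ± 0.44 without it (adjusted p = 0.1). MYC, a growth regulator with many inputs beside WNT, had 128 and 54.7, 314 and 146, and 115 and 48.4 CPM, and replicate 2 was lower in each group. AXIN2 was not called. With the block RNF43, a ubiquitin ligase that removes Frizzled receptors, fell by 0.59 ± 0.13 in Ni-E cells (adjusted p = 0.012) and by 0.60 ± 0.13 in Ni-W cells (adjusted p = 0.0154). Without it the edgeR adjusted p was 0.263 in Ni-E and 0.354 in Ni-W cells. Of the 12 secreted antagonists, DKK1 among them, only 2 were tested and none was called. In the planar cell polarity branch (17 of 18 tested) CELSR1, FLNA and PRICKLE1 were higher in Ni-E cells with the block, and CELSR1 and FLNA also in Ni-W cells.

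**Figure D3:**
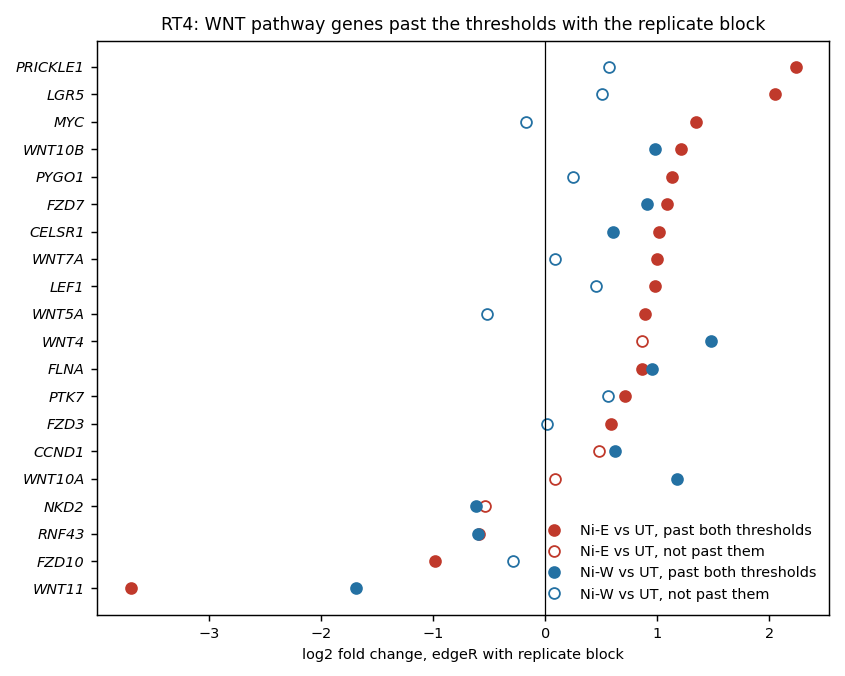
Log2 fold changes of the 20 WNT pathway genes other than ROR1 and ROR2 past both thresholds in Ni-E or Ni-W cells against UT, from edgeR with the replicate block; filled circles are past the thresholds of 1.5-fold and adjusted p below 0.05, open circles are not. LGR5 lies at 2.05 in Ni-E and 0.51 in Ni-W cells, and WNT11 lies lowest at −3.70 and −1.69.

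In BEAS-2B cells the H3K4me3 of the promoters, 2 kb on each side of the transcription start site, was given as RPKM, reads per kilobase of promoter scaled to sequencing depth. The 3 libraries had 28385725 (UT), 37493949 (Ni-E) and 29933551 (Ni-W) reads, of which 37.6%, 36.0% and 22.9% lay in the listed promoters, and the median promoter was at 1.57, 1.39 and 1.12 RPKM. Against UT cells the library median was thus shifted by −0.18 (Ni-E) and −0.49 (Ni-W) on the log2 scale, and ratios were taken after division by it. With 1 library per condition no test was made, a difference between libraries cannot be told apart from a difference between conditions, and the 95% Wilson intervals cover counting error only. Between 923 and 965 promoters per library were listed at 0, among them PTPRC, the epithelial marker KRT20 and the polarity gene SCRIB. Why they were at 0 was not tested, and a listed 0 was not read as absence of the mark. Of the fibroblast markers, VIM (8.95 RPKM in UT, 8.41 in Ni-E and 4.67 in Ni-W cells) and COL1A1 (8.74, 7.96 and 3.53) were at levels near that of KRT8 (7.33, 7.11 and 4.48). In UT cells PDGFRB was at 6.98 RPKM, PDGFRA at 2.61 and THY1 at 1.885. COL1A2, COL3A1, DCN, LUM and FAP lay between 0.167 and 0.476 RPKM there. Of the epithelial markers, KRT7 (7.15 RPKM in UT cells) and KRT18 (7.26) were near KRT8. FOXA1 (4.74), PPARG (4.34) and GATA3 (3.98) were lower in UT cells. EPCAM (2.21, 1.82 and 1.49) and CDH1 (1.02, 0.653 and 0.702) were lower again. KRT19 (0.432) and UPK1A, UPK1B, UPK2 and UPK3A (0.176 to 0.379) were lower still in UT cells.

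The ROR2 promoter carried H3K4me3 in UT cells already, at 10.6 RPKM (95% interval 10.0 to 11.2, from 1206 reads), higher than at 93.5% of promoters. It was at 8.38 RPKM (7.93 to 8.86) in Ni-E and 6.16 (5.73 to 6.62) in Ni-W cells, at the percentiles 86.8 and 92.3. The deposited level was thus highest in UT and lowest in Ni-W cells, while its place among the promoters of the library was lowest in Ni-E cells. After division by the library median the log2 ratio to UT was −0.16 in Ni-E and −0.30 in Ni-W cells, under 1.5-fold both times, and −0.07 in Ni-W cells after quantile normalization. Between Ni-E and Ni-W cells it was −0.13, and 0.23 with quantile normalization, so that its direction depended on the scaling. The CpG-rich sequence printed above for ROR2 lies in the annotated promoter; the start site that the authors centred on was not given.

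WNT7A was the exception among the members. Its promoter had the least H3K4me3 of the 10 in UT cells, 1.20 RPKM (1.01 to 1.42, from 136 reads), with 1.36 (1.19 to 1.56) in Ni-E and 2.07 (1.83 to 2.35, from 248 reads) in Ni-W cells. It therefore moved from the percentile 48.3 to 58.1 of promoters, while most members had lower values in Ni-W cells. The log2 ratio of Ni-W to UT was 1.28, or 0.79 with the values as deposited and 1.49 after quantile normalization, so that the direction was the same under these scalings. Of the promoters of 1 to 2 RPKM in UT cells, 90% had a ratio under 0.75. In Ni-E cells the ratio was 0.36, under 1.5-fold.

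**Figure D4:**
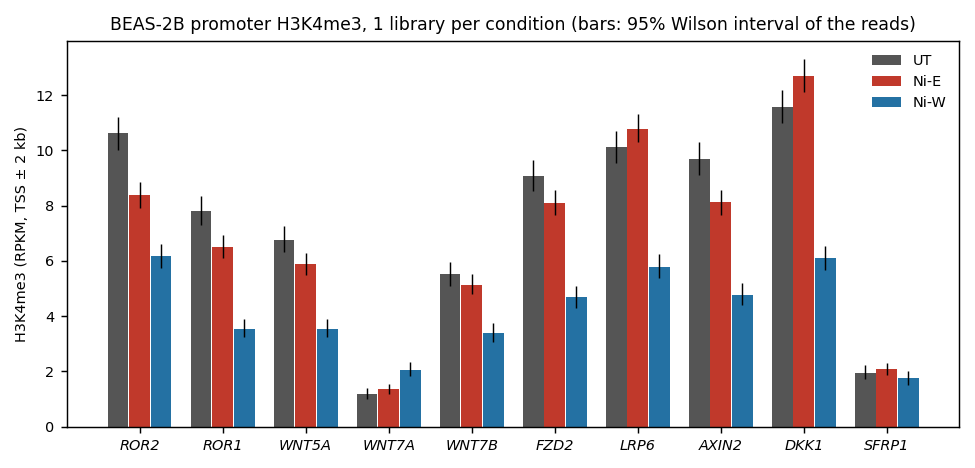
H3K4me3 (RPKM as deposited, within 2 kb of the start site) at the promoters of the 10 genes in 1 BEAS-2B library per condition (UT, Ni-E, Ni-W), with 95% Wilson intervals from the reads. In 9 genes the Ni-W bar is the lowest, and in WNT7A it is the highest (2.07 RPKM).

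The ROR1 promoter was at 7.81 RPKM (7.31 to 8.34) in UT, 6.51 (6.11 to 6.93) in Ni-E and 3.55 (3.23 to 3.9) in Ni-W cells, and its Ni-W to UT log2 ratio of −0.65 was the lowest of the members and past 1.5-fold, though not after quantile normalization (−0.35). WNT5A, at 6.77, 5.87 and 3.55 RPKM, had a Ni-W to UT ratio of −0.45. DKK1 had the highest H3K4me3 of the 10 in each library but Ni-W, with 11.6 (11.0 to 12.2), 12.7 (12.1 to 13.3) and 6.09 RPKM (5.66 to 6.55), and log2 ratios of 0.31 in Ni-E and −0.44 in Ni-W cells against UT. LRP6 had 10.1, 10.8 and 5.80 RPKM, AXIN2 9.67, 8.12 and 4.78, FZD2 9.07, 8.11 and 4.68, and WNT7B 5.51, 5.14 and 3.39. SFRP1 was low at 1.95, 2.08 and 1.75 RPKM, and its Ni-W to UT ratio of 0.33 was −0.16 with the values as deposited.

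Taken by counts, 0 of the 10 member promoters were past 1.5-fold in Ni-E against UT cells, where 0.847% of all promoters of at least 1 RPKM were higher and 0.567% lower. In Ni-W against UT cells 1 was higher (WNT7A), beside 4.36%, and 1 lower (ROR1), beside 18.4%. Between Ni-W and Ni-E cells 1 was higher (WNT7A, 0.92), beside 4.04%, and 2 were lower (DKK1, −0.75, and LRP6, −0.59), beside 30.5%. The median log2 ratio of the members was 0.05, −0.38 and −0.44 in these comparisons, with 0.11, −0.32 and −0.41 for all promoters. Of the 10, 8 had a ratio below 0 in Ni-W against UT cells, 9 with the values as deposited and 7 after quantile normalization. Without scaling 8 members were past 1.5-fold lower in Ni-W cells, beside 71.2% of all promoters, and after quantile normalization 0, beside 5.28%.

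**Figure D5:**
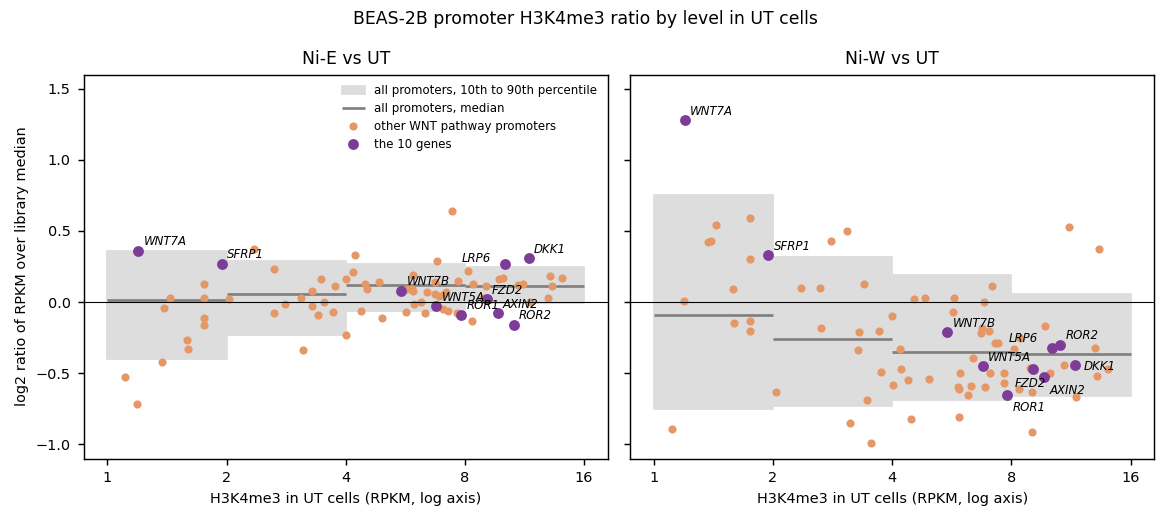
Log2 ratio of H3K4me3 over the library median, Ni-E to UT (left) and Ni-W to UT (right), against the level in UT cells (RPKM, log axis) for WNT pathway promoters of 1 to 16 RPKM in UT cells; grey shows the 10th to 90th percentile and the median of all promoters by level. Most members lie within the grey band on the right, with WNT7A above it at 1.28. On the left ROR1, ROR2 and AXIN2 lie below the band, LRP6 and DKK1 above it, and WNT7A at its upper edge.

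Among the 100 pathway promoters, 1 was past 1.5-fold higher (CCND1, the cyclin D1 gene, 7.40 to 10.2 RPKM) and 1 lower (WNT10A, 1.19 to 0.640 RPKM) in Ni-E against UT cells, of 81 with at least 1 RPKM. Of all promoters with at least 1 RPKM, 0.847% were higher and 0.567% lower. In Ni-W against UT cells 3 were higher (WNT7A, the antagonist gene FRZB and WNT2) and 17 lower of 82, beside 4.36% and 18.4% of all promoters. The lowest ratios were those of BCL9L, a β-catenin co-factor, WLS, which carries ligands to the cell surface, PRICKLE2, FLNA and FZD5. Between Ni-W and Ni-E cells 3 were higher (FRZB, WNT7A and DKK2) and 22 lower of 80, beside 4.04% and 30.5% of all promoters. The lowest were FZD3, BCL9L, FZD5, WLS and CCND1. WLS went from 9.03 RPKM in UT to 8.16 in Ni-E and 3.43 in Ni-W cells, and BCL9L from 3.53 to 3.13 and 1.27. FRZB, with 0.881, 0.600 and 1.40 RPKM, was like WNT7A a promoter of low level that was higher in Ni-W cells. The direction of the counts depended on the scaling: against UT cells 2 were higher and 59 lower in Ni-W cells with the values as deposited, and 7 higher and 5 lower after quantile normalization. Of all promoters, 1.86% were higher and 71.2% lower with the values as deposited, and 8.07% and 5.28% after quantile normalization. Between Ni-W and Ni-E cells it was 2 and 49 as deposited, beside 2.26% and 64.2% of all promoters, and 9 and 4 after quantile normalization, beside 8.03% and 5.81%. The median ratio of the pathway promoters in Ni-W against UT cells was −0.32, as for all promoters.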

How the data were processed

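RNA-Seq of 6 RT4 libraries and H3K4me3 ChIP-Seq of 3 BEAS-2B libraries were analysed; ChIP inputs were not analysed here. For RNA-Seq (TruSeq kit, no strand), the authors deposited RSEM estimated counts and TPM per gene; FPKM was not used. The labels name STAR and GRCh38, the methods STAR, hg19, RefSeq and DESeq2, and the build of the RSEM run is not given in the sources used here. For ChIP-Seq, the authors deposited the RPKM within 2 kb of each TSS, from BWA alignments to hg38 with redundant reads kept once and without peak calling. ChIP was done on a pair of biological replicates, and whether the libraries were pooled is not stated.

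The members, gene lists and tests were chosen with earlier results of these data known. Estimated counts, of which about 98.0% were whole, were rounded and fitted with edgeR 4.0.16 (R 4.3.3; TMM, filterByExpr, quasi-likelihood test, 3 groups). Genes with a change of at least 1.5-fold and a Benjamini-Hochberg adjusted p below 0.05 over 14502 genes were called. The replicate number, from the titles, in which the second library of each group is marked as a duplicate, was fitted as a block in an alternative. Deviations of libraries with the same number from their group means correlated over genes at 0.657 (UT, Ni-E), 0.764 (UT, Ni-W) and 0.689 (Ni-E, Ni-W). From these same data the numbers were taken to pair the libraries, and blocked values are given where they change a call. What the number stands for is not stated, and replicate 2 was the deeper library in each group. The p-values with the block rest on this pairing and on few residual degrees of freedom. CPM uses TMM library sizes. TPM was used for levels between genes and, with log2(TPM + 1), in limma 3.58.1. Replicates of a group were not duplicates of each other (r of log2 CPM 0.959 to 0.983). Total counts per library and the floor of 3 counts set the precision.

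H3K4me3 reads were recovered from the RPKM steps (100.0% whole within 0.0006 RPKM). Ratios of RPKM over the library median were taken for promoters with at least 1 RPKM in either library, without a test. Named genes were the members, other pathway genes called in RT4 cells (up to 8 per contrast and direction), CTNNB1, LRP5, RYK and PTK7, up to 5 promoters per contrast and direction, and the 5 genes most correlated with ROR2 (prior count 2). Alternatives were DESeq2 1.42.0, RLE normalization, all genes unfiltered, a minimum of 10 counts in every library, limma on TPM, the 2 groups alone, no fold threshold, leaving out each library, and for H3K4me3 no scaling, quantile normalization, log2(RPKM + 1) and at least 3 RPKM. Scripts were tested on simulated data.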

Additional observations from a re-analysis of the deposited data

How the results depend on the processing

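Without ROR2, 0 tested members were called in each RT4 comparison under RLE normalization, no filter, a minimum of 10 counts, limma on TPM, the 2 groups alone and no fold threshold. DESeq2 called 1 (Ni-E against UT) and 2 (Ni-W against Ni-E), and the replicate block 3 and 3 (2 and 2 without ROR1, which passed the filter through its high group); the block changed no other member's call. Of the pathway genes, with ROR2 counted in, 1 was past the thresholds higher in Ni-E and in Ni-W against UT cells, which was ROR2 itself, chosen for its rise, and 0 lower. In Ni-E cells DESeq2 called 4 higher and 2 lower, no filter 2 higher, the filter of 10 counts 0 higher (it removes ROR2), limma on log2(TPM + 1) 1 lower, and the block 15 higher and 3 lower. In Ni-W cells it was 2 higher (DESeq2), 0 (10 counts), 0 (the 2 groups alone), and 8 higher and 3 lower (block). Between Ni-W and Ni-E cells DESeq2 called 2 lower, and the block 2 higher and 7 lower. Over all genes the calls were 314, 87 and 0, with DESeq2 734, 437 and 139, with the block 1833, 1243 and 655. Leaving out each library in turn leaves 1 library in its group, so that only fold changes are given for these fits. In them the lone library is assumed to vary like the other groups. Calls over all genes against UT cells became fewer when a library of a compared group was left out. The log2 change of ROR1 in Ni-E cells ranged from 0.87 to 3.01. That of ROR2 ranged from 5.28 to 6.44 in Ni-E and from 4.44 to 5.60 in Ni-W cells, and was 2.37 and 1.72 on the log2(TPM + 1) scale, 4.56 and 3.76 with 0.1. Direction turned without a library for LRP6 (−0.17 to 0.78 in Ni-E, −0.64 to 0.74 in Ni-W against UT, −0.89 to 0.48 in Ni-W against Ni-E), AXIN2 (−0.23 to 0.59 in Ni-E), ROR1 (−1.37 to 0.85 in Ni-W) and FZD2 (−0.51 to 0.06 in Ni-W against UT, −0.17 to 0.40 in Ni-W against Ni-E). For H3K4me3, 2 pathway promoters were past 1.5-fold in Ni-E against UT cells, 1 after quantile normalization, 0 with log2(RPKM + 1) and 1 at 3 RPKM; 20 in Ni-W against UT cells, 61 without scaling and 12 after quantile normalization; and 25 in Ni-W against Ni-E cells, 51 and 13. Where no construction of the setting shows it, the cause was not tested. With 2 libraries a group and 1 ChIP library a condition, AXIN2, ROR1 and SFRP1 are limited by their counts.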
